A study of Mus musculus with 4 samples.

Results

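The mouse Ttc genes carry a family symbol that stands for tetratricopeptide repeat domain. A tetratricopeptide repeat is a short, degenerate motif that folds into a pair of packed helices. Arrays of it form a curved surface that binds other proteins, so these proteins mostly act as scaffolds, adaptors and co-chaperones. In cells with a cilium or flagellum, several of them work in intraflagellar transport, in the assembly of axonemal dynein arms or in the axoneme itself; others serve functions that every cell needs. The members were all rows of the deposited gene table with a symbol made of Ttc, a number and at most 1 letter and 1 further digit. Ttc8, Ttc21b, Ttc25, Ttc26, Ttc30a1, Ttc30a2 and Ttc30b were left out by the rule. This gave 35 genes of 55335. Members were selected on their symbol, but the family as a whole was chosen by its measured log2 changes between Znhit1_KO and CTRL in these 4 libraries, so that comparison is given as a description and supports nothing further.

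RNA was measured in whole testes of mice at postnatal day 14, in 2 libraries of genotype Znhit1_KO and 2 of genotype CTRL. ZNHIT1 belongs to the SRCAP complex, which exchanges the histone variant H2A.Z into nucleosomes, and the series concerns its part in pachytene gene expression. The sources used here do not give the strain, the allele, any Cre driver or the genotype behind the CTRL label. Znhit1 itself had 17.3 and 31.9 CPM, counts scaled to library size with TMM factors, in the CTRL libraries and 3.15 and 2.14 CPM in the Znhit1_KO libraries. Wherever a pair of values is given for a genotype, replicate 1 comes first. Estimated counts per library summed to between 129531714 and 157790457. The labels call the replicates independent biological ones; each group has 2, and an exact two-sided permutation test of 2 libraries against 2 cannot give a p below 0.333.

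Marker genes of several testis cell types were counted in the libraries. Markers of Sertoli cells summed to between 5707 and 8105 CPM per library, of spermatogonia to between 559.4 and 589.1, and of macrophages to between 14.3 and 40.6. Pachytene spermatocyte markers differed between libraries of one genotype as well as between genotypes. The 8 of them summed to 1362 and 2699 CPM in CTRL and to 733.0 and 1070 CPM in Znhit1_KO. For all 8, each Znhit1_KO value was below each CTRL value, as for 21.3% of all tested genes. A positive log2 change was found for 12 of 12 Sertoli markers and for 12795 of 24116 tested genes. The 6 early spermatocyte markers had log2 changes from -0.81 to -0.13, and the 7 Leydig markers from -0.057 to 2.62. The highest of these was that of Cyp17a1, at 1.00 and 0.833 CPM in CTRL and 5.97 and 5.33 CPM in Znhit1_KO. Of 5 markers of the multiciliated cells of the efferent ducts, Tmem212 and Sntn had no counts in any library, and the list summed to between 4.27 and 7.62 CPM. In whole testes, fewer cells of a type and less RNA per cell cannot be told apart.

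Of the 35 Ttc genes, 33 passed the filter on low counts; Ttc23l and Ttc24 did not, with at most 10 estimated counts in any library. Members differed widely in level. On the authors' TPM scale, which corrects for transcript length, Ttc4, a co-chaperone of Hsp90, was the most abundant in CTRL at 87.3 ± 12.4 TPM (SD, n = 2). Ttc3, a ubiquitin ligase that acts on Akt, stood at 77.7 ± 17.7 TPM and Ttc27 at 65.4 ± 3.49 TPM (SD, n = 2). Ttc4 was above Ttc3 in each CTRL library, at 96.1 and 78.5 TPM against 90.1 and 65.2 TPM, and the difference was not tested. Ttc22 was the least abundant tested member at 0.119 ± 0.0607 TPM (SD, n = 2), followed by Ttc36 at 0.628 TPM.

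The authors' deposited table marks 5 Ttc genes lower in Znhit1_KO and 0 higher, among 33 it lists: Ttc29, Ttc6, Ttc39d, Ttc21a and Ttc16. It marks 3.22% of its 25236 genes lower and 0.277% higher. Among the genes so marked the highest adjusted p is 0.0497 and the smallest absolute log2 change is 1.005. The edgeR quasi-likelihood test, adjusted by Benjamini-Hochberg over 24116 genes, called 0 Ttc genes and 0 genes in all (0%). At an unadjusted edgeR p under 0.05, 9 members were lower and 1 was higher, where 7.75% of all tested genes were lower and 2.99% higher. DESeq2 called 5 members lower, and 3.61% of the genes it gave an adjusted p were called lower. The authors' deposited table gives the same DESeq2 log2 changes for these 5, so the calls repeat the authors' test on the same counts.

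**Figure D1:**
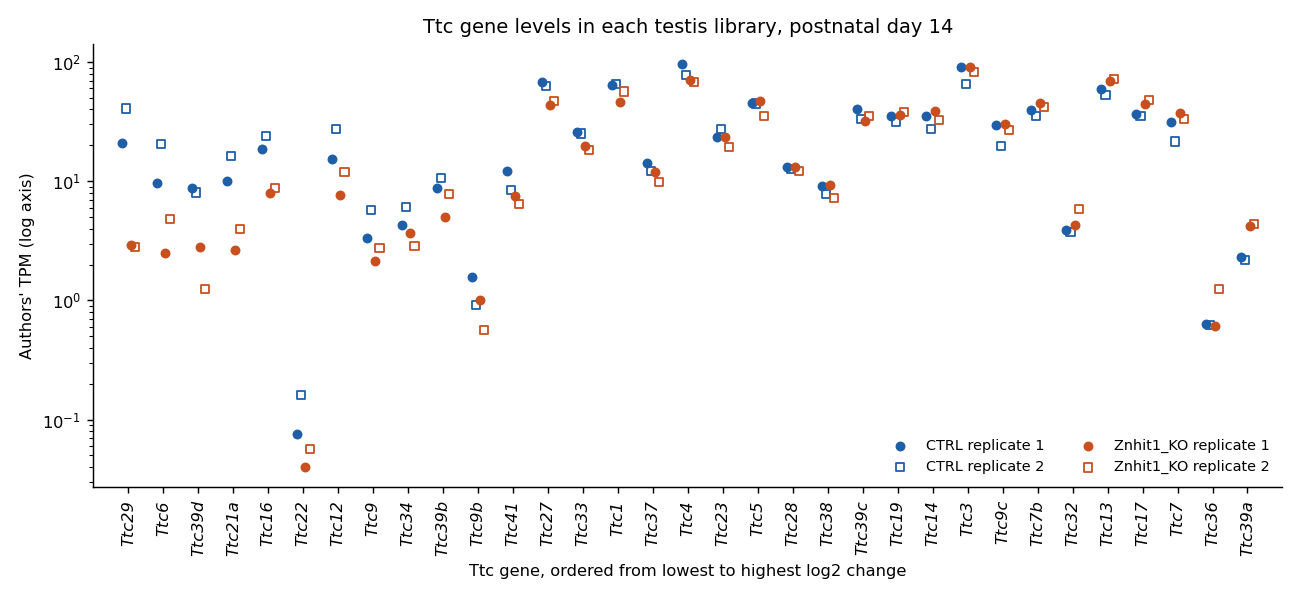
Authors' TPM (log axis) of the 33 tested Ttc genes in each of the 4 libraries, ordered by log2 change from lowest to highest; blue points are CTRL, orange points Znhit1_KO, filled circles replicate 1 and open squares replicate 2. The 5 leftmost genes, those marked by the authors, have both orange points below both blue points, whereas abundant members such as Ttc3 and Ttc5 overlap.

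Ttc29 had the lowest log2 change of the family. It encodes an axonemal protein of the sperm tail, and its loss in men leaves malformed, immotile flagella. Ttc29 (ENSMUSG00000037101.16, protein-coding, plus strand, chromosome 8, 78213297 to 78394326, mm10) stood at 20.8 and 40.8 TPM in CTRL. In Znhit1_KO it stood at 2.92 and 2.81 TPM. Both Znhit1_KO libraries were low and nearly equal, while CTRL replicate 2 was the highest; the groups did not overlap. The mean in Znhit1_KO was 9.30% of that in CTRL, and in order of level among the 33 genes Ttc29 was 12 in CTRL and 28 in Znhit1_KO. Its log2 change was -3.47 (SE 0.492; edgeR adjusted p of 0.264), and the authors' deposited table gives -3.48 with an adjusted p of 5.91e-13.

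The Ttc29 promoter held an X-box, the sequence that RFX factors of ciliated cells and spermatocytes recognise. It was searched as GTNNCC, 1 to 3 bases of any kind and NGNAAC on both strands, in 300 bases from 250 before to 50 after each RefSeq start (GRCm38.p6). Of 30 members with such a promoter 3 held it, Ttc29, Ttc17 and Ttc27, and 4.98% of 27025 genes did. The windows below show the 3 X-box matches in capitals, 5′ to 3′ on each gene's strand, because the 3 genes differed in their log2 change.
Ttc29 (chr8:78213293-78213322, plus strand): gcccctctGTTTCCATGGAGACgctttcag
Ttc17 (chr2:94406728-94406757, minus strand): ctcctccaGTTCCAGAGGCGACctccccaa
Ttc27 (chr17:74717597-74717625, plus strand): ttcaactGTCTCCACTAGCAACaactccc
The matches ended 27, 46 and 131 bases before the RefSeq start of Ttc29, Ttc17 and Ttc27. Their log2 changes were -3.47 (SE 0.492), 0.28 (SE 0.154) and -0.54 (SE 0.157). The Ttc29 match lies inside the GENCODE gene, whose start is upstream of the RefSeq one. A match is a string of letters and not a measured binding site.

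A second motif, the cyclic AMP response element, is bound by CREM in male germ cells and was searched as TGACGTNA. It holds a CG pair, and members and other genes were not matched for CG content. It was found in Ttc16, Ttc1 and Ttc19, 3 of 30 members, and in 3.36% of genes. The full palindrome was present in each, shown here because 1 of the 3 genes is marked lower and the other 2 are not.
Ttc16 (chr2:32775747-32775776, minus strand): accccgcccctTGACGTCAggcatccctaa
Ttc1 (chr11:43748103-43748132, minus strand): gagccgtacagTGACGTCAcacagctactt
Ttc19 (chr11:62281411-62281440, plus strand): acgagacggcgTGACGTCAgcatgcgtcat
The log2 changes of Ttc16, Ttc1 and Ttc19 were -1.38 (SE 0.270), -0.36 (SE 0.176) and 0.074 (SE 0.160). The MYB motif GGCNGTT, which stands for the binding sequence of the pachytene regulator MYBL1, was in 3 of 30 members, Ttc23l, Ttc37 and Ttc41, and in 13.6% of genes. None of the 5 marked members had it in this window, which says only that these letters are not there.

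Ttc21a is the close relative of the intraflagellar transport gene Ttc21b and is needed for the sperm flagellum. Ttc21a (ENSMUSG00000032514.11, plus strand, chromosome 9, 119937606 to 119967793) stood at 9.97 and 16.4 TPM in CTRL and at 2.65 and 3.99 TPM in Znhit1_KO. All Znhit1_KO values lay below all CTRL values, and replicate 2 was the higher in each genotype. Its log2 change was -2.07 (SE 0.407; edgeR adjusted p of 0.264). Ttc21b, which is not a member, had a smaller change of -0.63 (SE 0.251) and was more abundant, at 94.9 and 130.3 TPM in CTRL and 70.2 and 82.0 TPM in Znhit1_KO; the difference between the pair was not tested.

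Ttc12, a cytoplasmic factor that helps to assemble dynein arms before they enter the cilium, showed the same order of libraries with a smaller change. It stood at 15.3 and 27.4 TPM in CTRL and at 7.65 and 12.0 TPM in Znhit1_KO. The groups did not overlap, though Znhit1_KO replicate 2 came near CTRL replicate 1. The log2 change was -1.20 (SE 0.427; edgeR adjusted p of 0.424), and the authors' deposited table does not mark it (adjusted p of 0.0675).

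The other 2 members with a known role at cilia had log2 changes nearer to 0. Ttc23, which acts in Hedgehog signalling at the base of the primary cilium, stood at 23.7 and 27.3 TPM in CTRL and 23.7 and 19.4 TPM in Znhit1_KO, a log2 change of -0.28 (SE 0.217). Ttc17, which works through actin in the making of cilia, stood at 36.8 and 35.1 TPM in CTRL and 44.6 and 48.0 TPM in Znhit1_KO. Its log2 change was 0.28 (SE 0.154), with Znhit1_KO above CTRL in both libraries. The 5 cilium and flagellum members thus ranged from -3.47 to 0.28, with a median of -1.20.

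Ttc6, Ttc39d and Ttc16 are marked lower by the authors and have no role stated here. Ttc6 (plus strand, chromosome 12, 57564113 to 57737928) stood at 9.70 and 20.6 TPM in CTRL and at 2.501 and 4.83 TPM in Znhit1_KO. Replicate 2 was the higher in each genotype, and the genotypes did not overlap. Its log2 change was -2.12 (SE 0.516; edgeR adjusted p of 0.312).

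Ttc39d (plus strand, chromosome 17, 80207460 to 80217936) differed from the other marked genes in its replicates. It stood at 8.74 and 8.04 TPM in CTRL, nearly equal, and at 2.81 and 1.25 TPM in Znhit1_KO, where replicate 2 was the lower. Its log2 change was -2.08 (SE 0.437; edgeR adjusted p of 0.269). Ttc16 (minus strand, chromosome 2, 32757026 to 32775633) stood at 18.5 and 23.9 TPM in CTRL and at 7.89 and 8.79 TPM in Znhit1_KO. Its log2 change was -1.38 (SE 0.270; edgeR adjusted p of 0.264). Exons of Ttc16 overlap exons of Tor2a on the opposite strand, and strandedness of the libraries is not given, so reads of that overlap could not be told apart.

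Over the 33 tested members the median log2 change was -0.32, beside 0.031 over all 24116 tested genes. In CPM, the genotypes did not overlap for 23 members. Znhit1_KO was the lower in 17 and the higher in 6, where 21.3% of all tested genes were lower and 21.8% higher without overlap. In the authors' TPM, 16 members were lower and 7 higher without overlap, where 20% of the authors' listed genes were lower and 22.5% higher. Later counts without overlap are in CPM. A negative log2 change was found for 21 members and for 46.9% of all tested genes, and 7 had a log2 change of -1 or lower, as 8.88% of all tested genes did. Scaled to the summed Sertoli markers, the member median was -0.66 and that of all genes -0.32. Scaled to the summed pachytene markers, the member median turned positive, at 0.76, and that of all genes was 1.09.

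**Figure D2:**
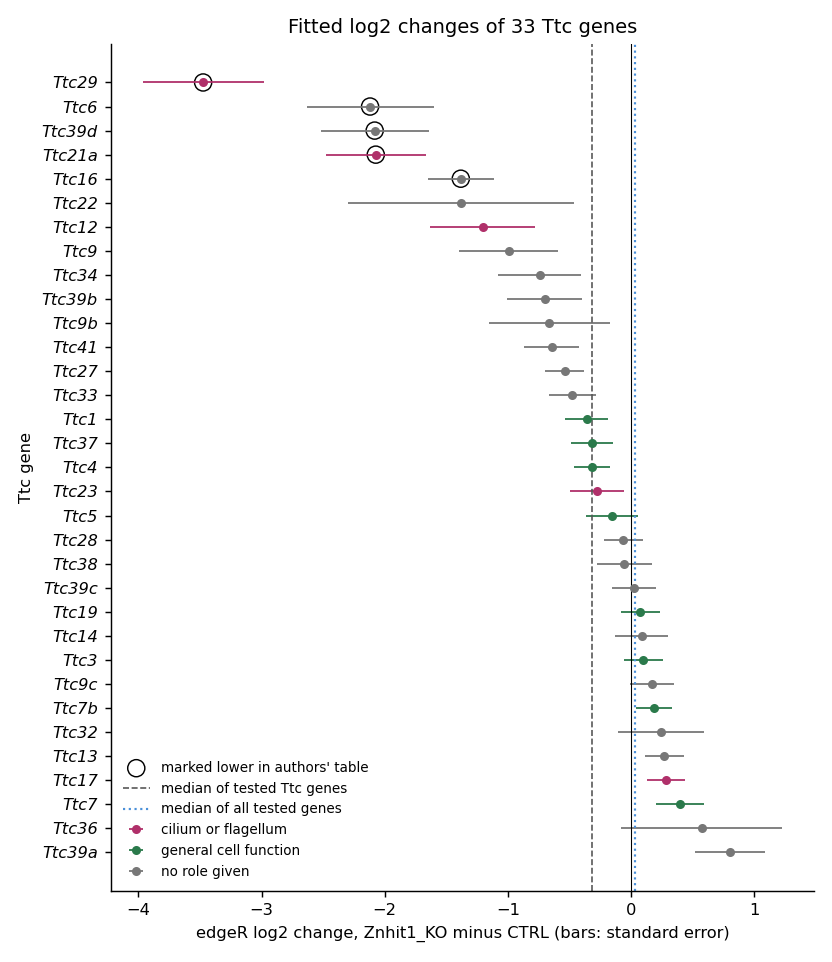
Fitted edgeR log2 change (Znhit1_KO minus CTRL) with its standard error for each of the 33 tested Ttc genes, coloured by role; circles mark the 5 genes marked lower in the authors' table, the dashed line is the member median of -0.32 and the dotted line the median of all tested genes, 0.031. The values run from -3.47 for Ttc29 to 0.80 for Ttc39a.

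The 8 members with a general cell function had log2 changes from -0.36, for Ttc1, to 0.40, for Ttc7, with a median of -0.042. Ttc1 stood at 63.8 and 66.0 TPM in CTRL and 46.2 and 56.6 TPM in Znhit1_KO. Ttc4 stood at 96.1 and 78.5 TPM in CTRL and 70.3 and 67.7 TPM in Znhit1_KO, a log2 change of -0.32 (SE 0.145). Ttc4, Ttc1 and Ttc37 were lower in Znhit1_KO with no overlap between libraries in CPM, and Ttc7 and Ttc7b were higher without overlap. Over all tested genes, the shares without overlap were 21.3% lower and 21.8% higher. Ttc37, the scaffold of the SKI complex that feeds RNA to the exosome, had a log2 change of -0.32 (SE 0.167). Ttc5, a cofactor of p53 that also takes part in tubulin mRNA control, had one of -0.16 (SE 0.210) and overlapped between genotypes. Ttc19, a mitochondrial protein of respiratory complex III, had a log2 change of 0.074 (SE 0.160). Ttc3 stood at 90.1 and 65.2 TPM in CTRL and 90.1 and 82.9 TPM in Znhit1_KO, where the lowest value was that of CTRL replicate 2 (0.098, SE 0.157).

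Among members with no role given here, Ttc27 combined a high level with a small difference in the same direction. It stood at 67.8 and 62.9 TPM in CTRL and 43.4 and 47.0 TPM in Znhit1_KO, a log2 change of -0.54 (SE 0.157; edgeR adjusted p of 0.344). Its replicates lay closer together than the genotypes did. Ttc33 stood at 25.7 and 25.1 TPM in CTRL and 19.8 and 18.3 TPM in Znhit1_KO (-0.48, SE 0.190).

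Ttc41 had its highest level in CTRL replicate 1. It stood at 12.3 and 8.39 TPM in CTRL and 7.51 and 6.41 TPM in Znhit1_KO, a log2 change of -0.65 (SE 0.225). Ttc34 stood at 4.27 and 6.08 TPM in CTRL and 3.70 and 2.84 TPM in Znhit1_KO (-0.74, SE 0.336). Both had no overlap between genotypes. Exons of Ttc34 overlap the antisense gene Gm13112, which stood at 1.11 CPM in CTRL and 0.214 CPM in Znhit1_KO.

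Ttc22 was barely detected, at 0.0762 and 0.162 TPM in CTRL and 0.0397 and 0.0562 TPM in Znhit1_KO, from at most 24 estimated counts in a library. Its log2 change of -1.38 had a standard error of 0.920. Ttc36 stood at 0.637 and 0.619 TPM in CTRL and at 0.615 and 1.25 TPM in Znhit1_KO, with only Znhit1_KO replicate 2 high (0.57, SE 0.657).

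Ttc13 was among the abundant members and was higher in both Znhit1_KO libraries, at 59.4 and 53.4 TPM in CTRL and 69.3 and 71.7 TPM in Znhit1_KO (0.27, SE 0.158). With libraries scaled to the summed Sertoli markers the log2 changes of Ttc13, Ttc17, Ttc7b and Ttc9c turned negative, at -0.071, -0.059, -0.16 and -0.19. The 4 remaining members, Ttc14, Ttc28, Ttc32 and Ttc38, overlapped between genotypes in CPM, with log2 changes from -0.062 to 0.24. Of these Ttc14 had its lowest level in CTRL replicate 2, at 27.2 TPM, and Ttc28, the longest coding sequence of the family with 7443 bases, stood between 12.2 and 13.3 TPM. In TPM, Ttc32 did not overlap, at 3.87 and 3.77 in CTRL and 4.27 and 5.82 in Znhit1_KO.

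Members of one subfamily differed from each other. Ttc7 and Ttc7b encode alternative scaffolds that hold phosphatidylinositol 4-kinase at the plasma membrane, and both were slightly higher in both Znhit1_KO libraries. Ttc7 stood at 31.5 and 21.6 TPM in CTRL and 37.3 and 33.5 TPM in Znhit1_KO, a log2 change of 0.40 (SE 0.194). Ttc7b stood at 39.2 and 35.0 TPM in CTRL and 45.6 and 42.2 TPM in Znhit1_KO, a log2 change of 0.19 (SE 0.148).

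In the Ttc9 group, Ttc9 stood at 3.32 and 5.77 TPM in CTRL and 2.14 and 2.77 TPM in Znhit1_KO, with a log2 change of -0.99 (SE 0.401). Ttc9c stood at 29.4 and 19.6 TPM in CTRL and 29.98 and 27.0 TPM in Znhit1_KO, with a log2 change of 0.17 (SE 0.178). Ttc9b stayed at or below 1.56 TPM in every library. Exons of Ttc9b overlap those of Map3k10, which stood far above it, so its few counts are uncertain.

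The 4 Ttc39 genes covered most of the family's range. Ttc39d had the log2 change of -2.08 given above. Ttc39b, which acts in the turnover of the nuclear receptor LXR, stood at 8.84 and 10.7 TPM in CTRL and 4.97 and 7.75 TPM in Znhit1_KO (log2 change -0.70, SE 0.304). Ttc39c stood at 40.2 and 33.4 TPM in CTRL and 31.8 and 35.1 TPM in Znhit1_KO, with the groups overlapping (0.023, SE 0.180). Ttc39a stood at 2.30 and 2.19 TPM in CTRL and 4.24 and 4.34 TPM in Znhit1_KO. Its replicates were nearly equal within each genotype, and its log2 change of 0.80 (SE 0.285; edgeR adjusted p of 0.424) was the highest in the family.

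**Figure D3:**
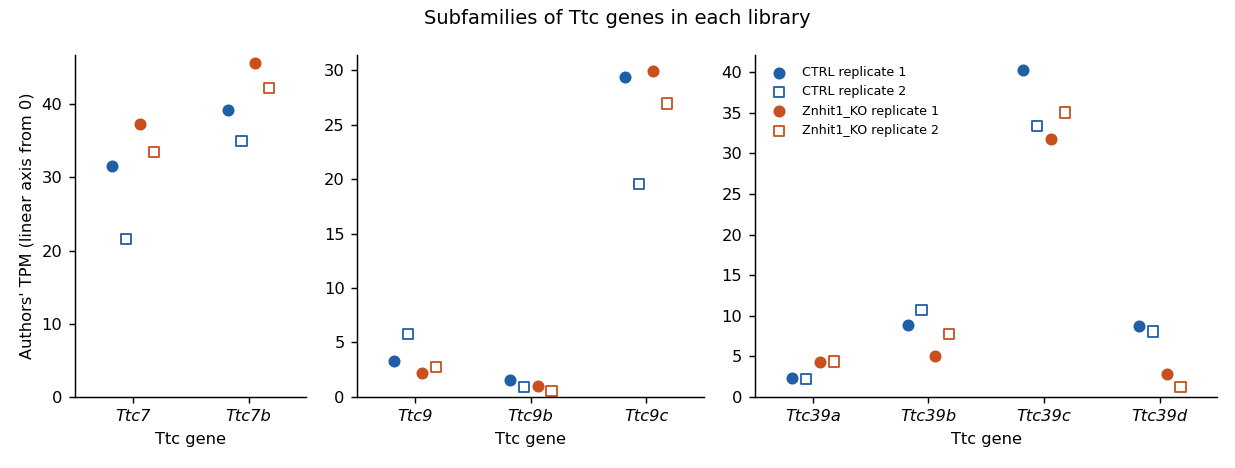
Authors' TPM (linear axes from 0, each panel on its own scale) of the Ttc7, Ttc9 and Ttc39 subfamilies in each library; blue is CTRL, orange Znhit1_KO, filled circles replicate 1 and open squares replicate 2. In the right panel Ttc39d is lower and Ttc39a higher in both Znhit1_KO libraries, while Ttc39c overlaps between 31.8 and 40.2 TPM.

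The CTRL pair differed in several of the members that were low in Znhit1_KO. On the log2(CPM + 1) scale, 8 of 33 members (24.2%) were at least 0.5 higher in CTRL replicate 2 than in replicate 1, as were 10.3% of all tested genes; 0 members were that much lower. They were Ttc29 (1.24), Ttc6 (1.21), Ttc12 (1.04), Ttc21a (0.90), Ttc9 (0.90), Ttc16 (0.58), Ttc34 (0.57) and Ttc39b (0.54). Ttc39d was not among them, at 0.072. In the Znhit1_KO pair, 4 members (12.1%) were at least 0.5 higher in replicate 2, as were 5.29% of all tested genes. These were Ttc6 (0.77), Ttc12 (0.62), Ttc39b (0.59) and Ttc21a (0.51). By the same measure 1 member was lower, Ttc39d (-0.74), as were 6.68% of all tested genes. The pachytene marker sums given above were also higher in replicate 2 of each genotype. Within the Znhit1_KO pair, however, Ttc29 (0.076) and Ttc16 (0.18) differed little, and Ttc34 (-0.35) was lower in replicate 2. The part of pachytene markers in the lower Ttc levels was not tested. Without CTRL replicate 2, the log2 change of Ttc29 was -2.67 (SE 0.369), of Ttc6 -1.36 (SE 0.401), of Ttc21a -1.52 (SE 0.373), of Ttc16 -1.05 (SE 0.309) and of Ttc12 -0.56 (SE 0.356), whereas that of Ttc39d was -2.04 (SE 0.503). For Ttc9, Ttc34 and Ttc39b it was then -0.40 (SE 0.391), -0.38 (SE 0.401) and -0.39 (SE 0.333). Without CTRL replicate 1, the log2 changes of Ttc29, Ttc6, Ttc21a, Ttc16 and Ttc12 were -3.99, -2.62, -2.47, -1.66 and -1.65, and that of Ttc39d was -2.13. Each of these fits keeps 1 CTRL library, so the spread within CTRL is not measured by them.

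Scaling to the pachytene markers themselves moved the log2 change of each of the 33 tested members upward by a similar amount. With libraries scaled to the summed pachytene markers, an alternative chosen after seeing the data, the log2 change of Ttc29 was still negative, at -2.21 (SE 0.712). It was -0.93 (SE 0.651) for Ttc6, -0.91 (SE 0.719) for Ttc39d and -0.91 (SE 0.661) for Ttc21a. Ttc16 stood at -0.24 (SE 0.645) and Ttc12 at -0.029 (SE 0.638), within their standard errors of 0. With this scaling 0 members were called by edgeR, and 0.162% of all genes were called lower. Without overlap between genotypes, 3 members were lower and 20 higher, where 4.15% of all tested genes were lower and 67.4% higher. The summed scale is weighted toward abundant markers such as Hspa2, at 699.7 and 1225 CPM in CTRL, whose TMM-scaled log2 change was -0.89. The 8 markers had a median TMM-scaled log2 change of -1.98, from -4.12 for Adam3 to -0.30 for Mybl1. Whether any Ttc gene was lowered more than pachytene genes in general was not tested.

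**Figure D4:**
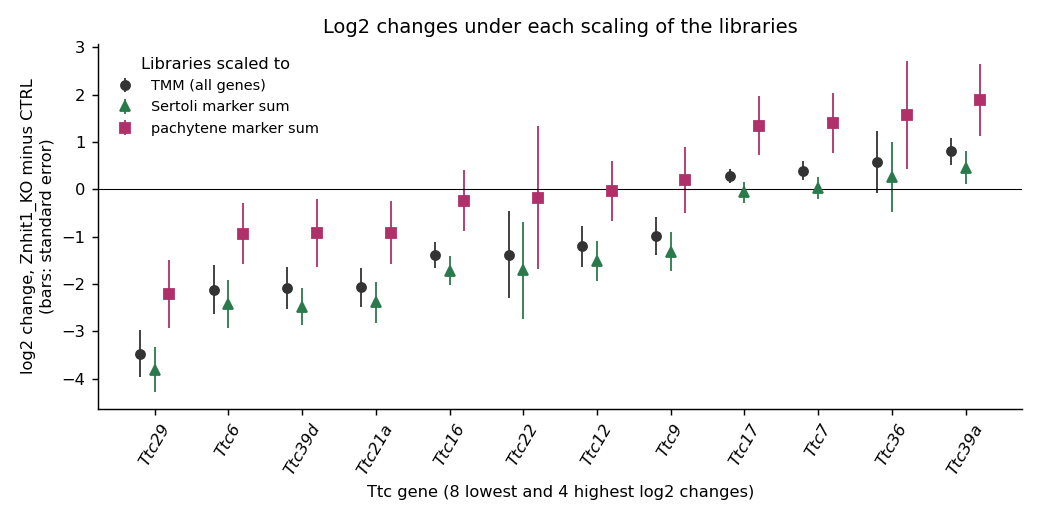
Log2 change (Znhit1_KO minus CTRL) with its standard error for the 8 Ttc genes of lowest and the 4 of highest log2 change, with libraries scaled by TMM (black circles), to the summed Sertoli markers (green triangles) and to the summed pachytene markers (magenta squares). Ttc29 is below 0 with each scaling (-3.47, -3.81 and -2.21), while Ttc9 is at 0.20 with pachytene scaling.

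Other genes of tetratricopeptide repeat proteins were grouped by role. Of 12 such genes of cilia and flagella, which include the 7 Ttc genes left out by the rule, all 12 were lower in Znhit1_KO with no overlap. Of all tested genes, 21.3% were lower and 21.8% higher without overlap. The 12 cilium and flagellum genes had a median log2 change of -1.27, and the authors' deposited table marks 7 of them lower, as it does 3.22% of all genes it lists. Cfap70, an axonemal protein, had the lowest value at -2.64 (SE 0.543), with 21.2 and 40.6 TPM in CTRL and 3.38 and 7.70 TPM in Znhit1_KO. The 12 co-chaperones had a median of -0.076, with 1 lower and 3 higher without overlap and 0 marked. The 4 subunits of the anaphase-promoting complex ranged from -0.13 to 0.11 with 0 marked. A further 11 genes, which include the O-GlcNAc transferase gene Ogt and the histone chaperone gene Nasp, had a median of 0.29, with 1 lower and 2 higher without overlap and 0 marked. The edgeR test called 0 genes in each of these lists; at an unadjusted p under 0.05 it had 9 cilium genes lower, 1 co-chaperone higher, 0 subunits and 1 of the further genes lower, beside 7.75% lower and 2.99% higher among all tested genes.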

How the data were processed

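The authors' tools, per the submitters' processing notes, were HISAT2 2.2.1 and StringTie 2.2.1, with cutadapt 2.5, DESeq2 1.38.3 and the mm10 build. The sources used here give no order, settings or annotation. Whole-number values of the deposited gene table were taken as estimated counts, since their sums exceed the reads per the labels. Counting precision computed from them would be overstated, and no counting interval is given. In the authors' deposited comparison table, TPM is given per library, with a base mean signal, log2 fold changes, a Wald score, and p-values with adjusted p-values.

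Counts were tested with edgeR 4.0.16 in R 4.3.3 (quasi-likelihood, TMM, filterByExpr, genotype as the only term, Benjamini-Hochberg at 0.05), which kept 24116 genes. CPM uses the TMM factors; standard errors come from the F statistic. The fit was also run on simulated counts drawn independently for each library. The outcome is not given here and no result rests on it. DESeq2 1.42.0, limma 3.58.1 (voom), other scalings, no filter, single libraries left out, a replicate block and the authors' TPM (log2 with a pseudocount of 1) were alternatives. Positions and overlaps come from GENCODE M21 (mm10), where all 35 gene identifiers were found without their version; promoters come from RefSeq (GRCm38.p6), where 30 of 35 members were found by symbol, with 28 of 35 promoter starts present in a GENCODE transcript of the gene.

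Any member could be named; values in every library were given for members marked by the authors, the 8 lowest and 4 highest log2 changes, the 4 most abundant and the subfamilies. The members, lists and motifs were chosen with earlier results of these data known. The partner gene of 1 member's start region is not reported here.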

Additional observations from a re-analysis of the deposited data

How the results depend on the processing

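The member median kept its sign in every alternative except scaling to the summed pachytene markers, where it was 0.76; that sum was itself lower in Znhit1_KO. With 1 library left out it ranged from -0.41 to -0.27. With all 4 libraries, the count of members called by edgeR was 0 with TMM, total count and pachytene scaling and with no filter. With Sertoli scaling it was 1 (Ttc29, lower), where 0.39% of all genes were called lower and 0.0166% higher. Calls from fits with 1 library left out are not given, since a group then holds 1 library. Of the other tests, limma-voom called 0 members and DESeq2 called 5. Of the 5 called by DESeq2 each is marked in the authors' deposited table. That table holds the same DESeq2 log2 changes and standard errors for them, so this overlap is not separate evidence. With pachytene scaling 3 members were lower and 20 higher without overlap, where 4.15% of all genes were lower and 67.4% higher. With Sertoli scaling 1 member was higher and 24 were lower without overlap, where 5.22% of all genes were higher and 44.3% lower. With the replicate number as a block, edgeR called 10 members, all lower, and 7.97% of all genes lower and 3.38% higher. Deviations of same-numbered libraries from their group means correlated at 0.421 over genes, but the labels do not say that the numbers pair the libraries. Sertoli and pachytene scaling shift all genes together and changed the sign of 9 and 14 members; in every other alternative run, 24 of 33 tested members kept the sign of their log2 change. Each group has 2 libraries, and the values of Ttc22, Ttc36 and Ttc9b rest on the fewest counts.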

Other observations

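Several Ttc genes share a start region with another gene. For 8 members a protein-coding gene on the opposite strand starts within 1000 bases upstream of the GENCODE start. Ttc21a and Ttc39d, both marked lower by the authors, are among them, and log2 changes of their partners were within 1 standard error of 0. Ttc21a starts 41 bases from Gorasp1, a Golgi stacking protein gene, which stood at 28.9 and 25.8 CPM in CTRL and 31.7 and 21.7 CPM in Znhit1_KO, a log2 change of -0.033 (SE 0.238). Ttc39d starts 153 bases from the splicing factor gene Srsf7, at 136.2 and 138.1 CPM in CTRL and 139.2 and 139.4 CPM in Znhit1_KO (0.022, SE 0.134). The difference within each pair was not tested. A further 5 partners, Hsp90b1, Arsk, Zswim7, Hnrnpul2 and Arv1, had log2 changes between -0.19 and 0.11.

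Member promoters were richer in G and C than promoters at large. No filter for coding or expressed genes was applied to the latter, whereas all 35 members are protein-coding. Their median GC content was 58.7% over 35 promoters, and 52.7% over all RefSeq promoters; the median number of CG pairs in 300 bases was 15 and 7. These promoters lie at RefSeq starts; that of Ttc39d is inside the gene, downstream of the GENCODE start near Srsf7. Among the marked members the number was 5 in Ttc39d, 6 in Ttc6, 11 in Ttc29 and 24 in Ttc21a, and Ttc16 had 27 and 13 at its 2 starts.

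Exons of 8 members overlap exons of another protein-coding gene. For Ttc14 the overlapping gene is Ccdc39, a ciliary ruler protein gene, which stood at 78.3 CPM in CTRL and 50.9 CPM in Znhit1_KO; Ttc14 changed by 0.086 (SE 0.215).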
